A study of Gallus gallus with 45 samples.

Results

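The genes described here had a difference between 2 broiler lines, line Y minus line X, that changed its sign between day 0 and day 16 after hatch in the jejunum, the middle part of the small intestine. They were the 150 genes with the highest score out of 3648 candidate genes, which were RefSeq transcripts with a probe at a mean log2 intensity of 8 or more in at least 1 group of pools. The score was the smaller of the absolute line differences at day 0 and at day 16, taken over the probe of each gene that scored highest, among probes whose differences at these days had opposite signs. Of the 150 genes, 125 were higher in line Y at day 0 and lower at day 16, and 25 were lower in line Y at day 0 and higher at day 16. Among all 3740 measured genes with a symbol, at 1 probe each, 694 ran the first way and 1047 the second. The larger number of the first direction thus holds for the highest scores and not for all genes. The 150 genes were chosen by the line differences at days 0 and 16, and these are given below as a description without a test. The line difference at day 4 was not used for the choice and was tested. The changes with age over the mean of both lines were tested too. They share the arrays of day 0 and day 16 with the choice, so they are not independent of it.

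Whole jejunal tissue was taken from chickens of line Y and line X, which are genetically divergent broiler lines known by these letters only, at 0, 4 and 16 days of age, without any treatment. Each array held the RNA of 1 pool of 10 birds, which hides the differences between birds. Over the 3 ages in turn, 7, 7 and 8 pools came from line Y, and 7, 8 and 8 from line X, and nothing beyond these labels describes the birds of a pool. For pools 2 to 8 of line Y the labels hold both day 0 and day 4, and these pools were treated as day 0. In line X the same pool numbers are labelled day 0 only, and line Y has other pool numbers at day 4. The arrays of pools 2 to 8 of line Y had a mean correlation of 0.974 with line X at day 0, 0.973 with line Y at day 4 and 0.966 with line X at day 4.

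The median raw intensity of an array was between 197 and 262 in line Y and between 140 and 173.5 in line X at day 0. At day 4 it was between 136 and 199 in line Y and between 141 and 195 in line X. At day 16 the ranges were 110 to 183 in line Y and 78 to 170 in line X. Brightness thus moved with the line at day 0, before normalization, and its part in the results was not tested. Slide and group cannot be told apart, because the arrays of a group shared 1 slide that held no other group. All 150 probes passed the filter on dim probes, and 38 of them exceeded its limit in all arrays. For 12 of the 150, 1 or more pools were not called well above background by the scanner software. In 1 of these genes 0 of 8 line Y and 0 of 8 line X pools were called so at day 16. Its day 16 difference thus lies near the background.

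At hatch the chick intestine turns from yolk to feed as its source of nutrients. In the following days villi lengthen, enterocytes take up sugars, peptides and fat, cells divide in the crypts, and lymphocytes settle in the wall. Antimicrobial peptides of the epithelium and of heterophils protect the young gut before lymphocytes have matured. A line difference in whole tissue can arise from the level per cell as well as from the share of a cell type, and fewer cells of a type and less RNA per cell cannot be told apart in these pools.

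In the 125 genes that were higher in line Y first, the line difference had a median of 0.90 on the log2 scale at day 0, with a range from 0.50 to 3.85, and a median of -0.70 at day 16, with a range from -2.46 to -0.49. In the 25 genes that were lower in line Y first, the median was -0.69 at day 0 and 0.60 at day 16. The day 0 difference was the larger one in 99 of the 150 genes. The score ran from 1.65 for RANBP1, a partner of the nuclear transport GTPase Ran, to 0.49 for PHTF2. THRSPB stood just inside the limit with a score of 0.4885, as did PHTF2, whereas ERBB3, a growth factor receptor, stood just outside with 0.4869.

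**Figure D1:**
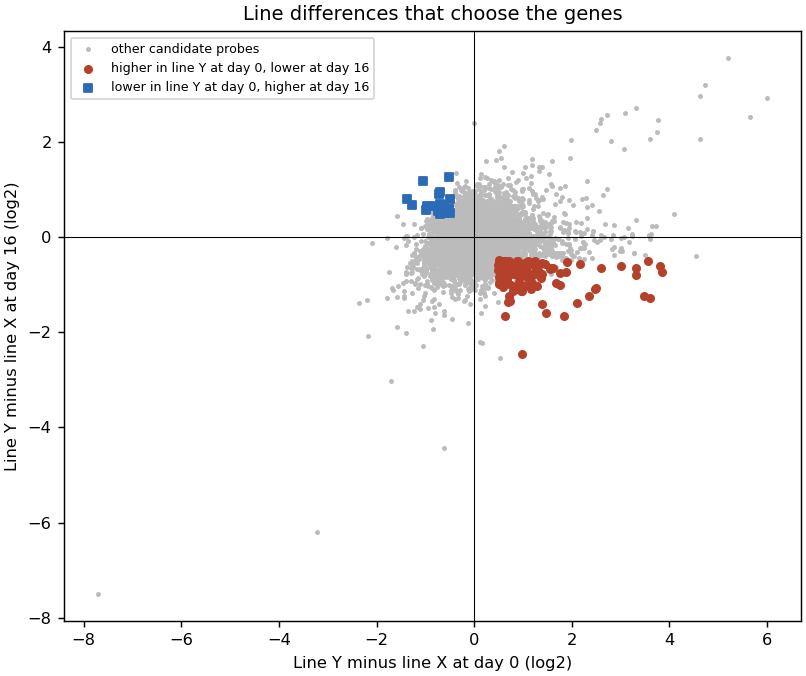
Line difference at day 16 against that at day 0 in log2 units, for candidate probes (grey) and for the probes of the 150 genes (red circles, higher in line Y at day 0; blue squares, lower). The 125 red circles reach 3.85 at day 0, whereas the 25 blue squares lie between -1.37 and -0.49.

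The highest scores belonged to genes of varied function. RANBP1 had its lowest, median and highest value at 6.98, 8.09 and 8.44 in line Y, against 5.23, 5.66 and 7.59 in line X at day 0. Day 4 gave 7.59, 8.59 and 9.02 in line Y, against 6.29, 7.14 and 8.04 in line X. At day 16 it had 5.28, 6.91 and 8.62 in line Y, against 7.66, 8.75 and 9.33 in line X. Single pools overlapped on every day, while the medians were in reverse order at day 16. The difference at day 4 was 1.31 ± 0.38 (limma adjusted p = 0.0057), whereas the other RANBP1 probe had -0.24, -0.27 and 0.02 at days 0, 4 and 16.

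PDCD10, a scaffold protein of vessels and the Golgi, differed by 0.47 ± 0.19 at day 4 (limma adjusted p = 0.043), between 1.47 at day 0 and -1.58 at day 16. With the pool number as a block it was not called (limma adjusted p = 0.14), and its 2 other probes had -0.69 and 0.89 at day 0. MRPL50, of the mitochondrial ribosome, and RPL7L1, which acts in ribosome assembly, were higher in line Y at day 4 by 1.09 ± 0.21 and 1.80 ± 0.34. Their other probes had -0.26 and -0.20 at day 0. SPIN1, a chromatin reader on chromosome Z, had 0.73 ± 0.39 at day 4 and was not called, as was SH3GLB1, a protein of autophagy and mitochondria, with 0.32 ± 0.31. SPIN1 has a close copy on chromosome W, so that its probes may read both. In the other direction, LIMK1, a kinase of actin turnover, MAPT, the tau protein of neurons, and YPEL2 had -0.24 ± 0.12, -0.15 ± 0.12 and -0.18 ± 0.11 at day 4, and none was called.

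The changes with age are given here by line as a description, since the gap between the lines in these changes is the reversal by which the genes were chosen. Of the 125 genes higher in line Y first, 92 had a lower mean at day 16 than at day 0 in line Y and a higher one in line X, and 25 were higher at day 16 in both lines. The median change over these 16 days was -0.51 in line Y and 1.303 in line X. Of the 25 other genes, 9 were higher at day 16 in line Y and lower in line X, 8 were higher in both lines and 8 were lower in both. Their median change was 0.50 in line Y and -0.82 in line X.

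Averaged over the 125 genes, the level of a pool was between 9.86 and 10.06 in line Y and between 8.56 and 8.95 in line X at day 0. At day 4 it was between 9.97 and 10.17 in line Y and between 9.35 and 9.60 in line X. At day 16 it was between 9.23 and 9.51 in line Y and between 9.96 and 10.30 in line X. Line X thus approached line Y by day 4 and stood above it at day 16, with no overlap of the pools on any day, which the choice of genes fixes at days 0 and 16.

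**Figure D2:**
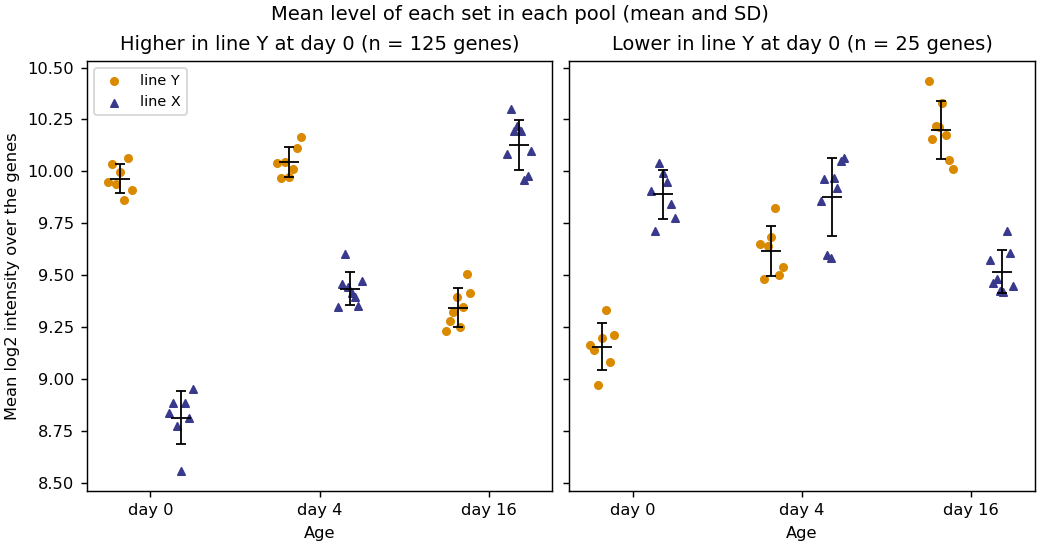
Mean log2 intensity over the 125 genes higher in line Y at day 0 (left) and over the 25 genes lower in line Y at day 0 (right), 1 point for each pool, with line Y (circles) beside line X (triangles) and bars for the mean and SD of the pools. In the 125 genes line X moves from a mean of 8.81 at day 0 to 10.13 at day 16.

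At day 4 the line difference mostly had the sign of day 0. Of the 125 genes higher in line Y first, 63 were called higher in line Y at day 4 (50.4%), beside 12.1% of all 25527 probes tested. In the same set 0 were called lower, beside 11.3% of all probes. Of the 25 genes lower in line Y first, 7 were called lower (28.0%, with the same background of 11.3%) and 0 were called higher. Over all 150 genes, 70 were called with the sign of day 0, against 20.2% of all probes, and 0 with the sign of day 16, against 14.3% of all probes. A call required an adjusted p under 0.05 in limma and a change of over 1.3 fold. Among all probes whose line differences at days 0 and 16 had opposite signs, 16.4% were called at day 4 with the sign of day 0 and 3.68% with the sign of day 16. Of 344 candidate genes that passed the same score limit with like signs at both days, 53.5% were called at day 4 with that sign, and the gap to the 46.7% of the genes described here was not tested.

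The median difference at day 4 was 0.47 in the first set and -0.33 in the second, beside -0.05 over all probes tested. The day 4 difference lay between the differences of day 0 and day 16 in 134 of the 150 genes. The choice itself favours this count. It set opposite signs at days 0 and 16, so that a small day 4 difference of either sign lies between them. The count thus cannot show a gradual change, and no share over other genes was set beside it. In 16 genes the day 4 difference was at least as large as at day 0 with the same sign. The pools of the lines did not overlap at day 4 in 32 genes (21.3%), whereas this was so for 12% of all probes. With the sign of day 16, 3 genes reached an unadjusted p under 0.05, namely SLC34A2 (limma adjusted p = 0.073), C1orf43 (0.083) and 1 gene without a symbol, which passed the adjustment (0.031) but not the fold threshold.

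**Figure D3:**
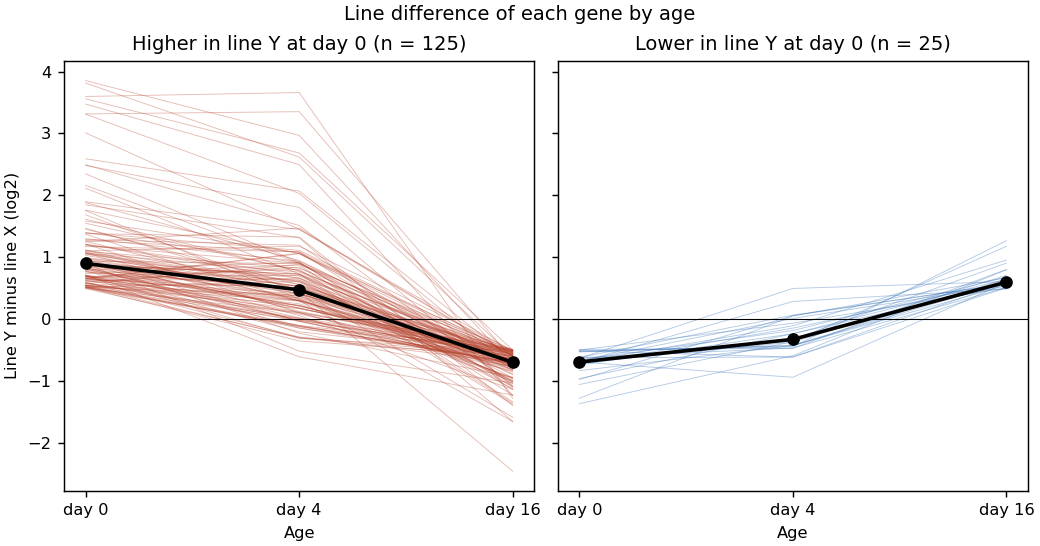
Line Y minus line X in log2 units at days 0, 4 and 16, 1 thin line for each gene, for the 125 genes higher in line Y at day 0 (left) and the 25 genes lower (right), with the median in black. The median passes from 0.90 through 0.47 to -0.70 in the left panel and from -0.69 through -0.33 to 0.60 in the right panel.

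Most genes have more than 1 probe on the array, and the other probes often gave another picture. The genes had 277 other probes past the filter on dim probes, which belonged to 129 of the 150 genes. Of these probes, 161 (58.1%) had the same signs at day 0 and day 16 as the probe that chose the gene. In 57 genes all other probes had both signs, in 38 genes some had, and in 34 genes none had. By direction, both signs were found in 137 of the 246 other probes of genes higher in line Y first, and in 24 of the 31 of genes lower first. Over all 3740 measured genes with a symbol, at 1 probe each, 694 were higher in line Y at day 0 and lower at day 16, and 1047 the reverse. The gap to these shares was not tested.

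Because the probe with the highest score stood for each gene, the choice itself makes the differences of its other probes smaller at days 0 and 16. For genes higher in line Y first, the medians were 0.14, -0.03 and -0.27 at days 0, 4 and 16. At day 4, 29 of the 246 other probes of these genes were called higher (11.8%, against 12.1% of all probes) and 14 were called lower (5.69%, against 11.3%). Higher calls in these other probes were thus about as frequent as on the array as a whole, and lower calls were less frequent, a gap that was not tested. For genes lower in line Y first, the 31 other probes had medians of -0.15, -0.16 and 0.43 at days 0, 4 and 16. At day 4, 7 of them (22.6%) were called lower and 3 were called higher.

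The other probes had a like median whatever the size of the difference that chose the gene. The 14 genes with a day 0 difference of 2 or more had a median of 3.16 at day 0 and 2.05 at day 4, and 13 of them were called at day 4, while their 28 other probes had medians of 0.13 and -0.12. In the 36 genes with a day 0 difference from 1 to 2 the medians at days 0 and 4 were 1.27 and 0.77, while their other probes had 0.08 and -0.03. In the 75 genes under 1 they were 0.69 and 0.22, while the other probes had 0.15 and -0.02. A wider gap at day 0 in the first class follows from the choice of the probe. Sequences of the probes were not used here, and which transcript or allele each one reads was not tested.

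**Figure D4:**
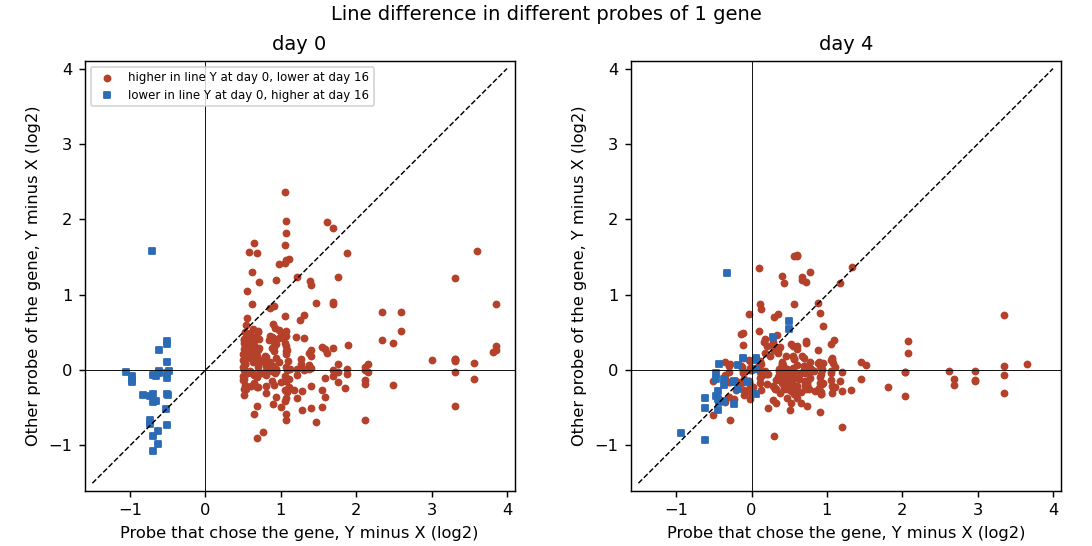
Line Y minus line X in log2 units for each other probe of a gene (vertical axis) against the probe that chose the gene (horizontal axis), at day 0 (left) and day 4 (right), for genes higher (red circles) or lower (blue squares) in line Y at day 0. The dashed line marks equal differences, and the other probes of genes past 2 on the horizontal axis lie mostly near 0.

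Enzymes of glycolysis were among the genes higher in line Y first. LDHA, which interconverts pyruvate and lactate, ENO1 (enolase) and GAPDH had a median line difference of 1.301 at day 0 and -0.69 at day 16. In this group 2 of the 3 were called higher in line Y at day 4. This and the following groups by role were formed after the values were seen and have no test, and their counts stand beside 50.4% called higher among the 125 genes and 12.1% among all probes. At day 0 the LDHA probe had its lowest, median and highest value at 10.74, 11.53 and 11.77 in line Y, against 7.25, 7.41 and 7.85 in line X. At day 4 these were 12.28, 12.84 and 13.64 in line Y, against 9.38, 9.98 and 10.74 in line X. At day 16 they were 11.15, 11.58 and 12.22 in line Y, against 11.39, 12.39 and 13.06 in line X. The pools were thus apart at days 0 and 4, with line Y above, and overlapped at day 16 with line X above. At day 4 the difference was 2.97 ± 0.21 (SE, 7 and 8 pools, limma adjusted p = 8.7e-16).

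The 3 other LDHA probes had the same signs, with day 0 differences between 0.26 and 0.88 and day 16 differences from -0.70 to -0.43, yet their day 4 differences ran from -0.14 to -0.01 and none was called. ENO1 differed by 0.94 ± 0.19 at day 4 (limma adjusted p = 8.9e-05). GAPDH differed by 0.37 ± 0.11, which did not reach the fold threshold. Of the 10 other probes of these 3 genes 6 had both signs. In 8 genes of mitochondrial and amino acid metabolism, among them VDAC1, the channel of the outer mitochondrial membrane, 11 of 12 other probes had both signs. At day 4, 2 of the 8 genes were called higher in line Y. In 8 genes of nuclear transport, splicing and chromatin 5 of 16 other probes had both signs, and 2 genes were called higher at day 4.

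Genes of translation were represented by 8 members. Of these, 5 were called higher in line Y at day 4, beside 50.4% of the 125 genes and 12.1% of all probes. Only 9 of the 19 other probes of these genes had both signs, and in 2 of the 8 genes all other probes had them. RPL37, a protein of the large ribosomal subunit, had its lowest, median and highest value at 7.99, 8.67 and 9.20 in line Y, against 4.59, 5.09 and 5.45 in line X at day 0. At day 4 they were 8.49, 8.85 and 9.25 in line Y, against 4.58, 5.37 and 5.54 in line X. At day 16 they were 6.02, 7.33 and 7.97 in line Y, against 7.99, 8.45 and 8.86 in line X. The pools of the lines did not overlap on any day. The difference at day 4 was 3.66 ± 0.20 (limma adjusted p = 1.7e-19), while the scanner software called the probe well above background in 5 of 7 line X pools of day 0 and 6 of 8 of day 4. The other RPL37 probe had 1.58, 0.09 and -0.78 at days 0, 4 and 16.

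EIF3H and EIF3M, subunits of the initiation factor that brings messenger RNA to the ribosome, were also higher in line Y at day 4. EIF3H had 12.53, 12.63 and 12.72 as its lowest, median and highest value in line Y at day 4, against 12.04, 12.22 and 12.35 in line X, and these groups did not overlap. The difference was 0.41 ± 0.07 for EIF3H (limma adjusted p = 2.4e-05) and 0.61 ± 0.09 for EIF3M (limma adjusted p = 5.4e-07). EEF2, the elongation factor that moves the ribosome along, had -0.35 ± 0.19 at day 4 and was not called. In the list of 33 measured genes of ribosome and translation, 2 were called higher in line Y at day 4 and 0 lower, with a median difference of -0.0021 beside -0.03 over all 3740 genes with a symbol. RPL37 and EEF2 were the 2 members in this list, so that its other genes did not belong to the 150. Of the 3740 genes, 357 were called higher in line Y at day 4 and 309 lower, and the counts of the other lists stand beside these.

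Genes of the actomyosin cortex, which drives contraction and shape of cells, included MYH9, a nonmuscle myosin heavy chain, MYL12A, a myosin light chain, and SPTBN1, a spectrin under the membrane. Of 7 such genes 6 were called higher in line Y at day 4, beside 50.4% of the 125 genes and 12.1% of all probes. The median difference over the 7 was 0.78. MYH9 was 9.11, 9.48 and 9.99 in line Y (lowest, median and highest), against 8.46, 8.94 and 9.05 in line X at day 4, and the groups did not overlap. Its difference was 0.60 ± 0.17 (limma adjusted p = 0.0042), and 6 of its 9 other probes had both signs. SPTBN1 differed by 2.03 ± 0.21 at day 4, while 1 of its 3 other probes had both signs. For MYL12A the difference at day 16 was -1.07 and became -0.37 without pool 21 of line Y.

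Among 13 genes of vesicle traffic and the endoplasmic reticulum, 7 were called higher in line Y at day 4 and 0 lower. The 13 genes included ARF1 and RAB18, which are small GTPases of vesicles, and P4HB, which forms disulfide bonds in new proteins. P4HB differed by 0.41 ± 0.15 (limma adjusted p = 0.023), and with the pool number as a block by 0.36 ± 0.14, which is under the fold threshold. PACSIN2, which bends membranes, differed by 1.19 ± 0.18 (limma adjusted p = 7.5e-07), but 0 of its 3 other probes had both signs. In the list of 24 measured genes for chaperones and protein folding 2 were higher at day 4 and 1 was lower, and P4HB was its 1 member.

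Genes of signalling included CCK, the hormone that slows the stomach and releases bile and pancreatic enzymes. In this group 6 of 7 were called higher in line Y at day 4. The CCK probe had its lowest, median and highest value at 9.25, 9.68 and 10.53 in line Y, against 6.71, 7.12 and 7.88 in line X at day 4. The groups did not overlap, and the difference was 2.62 ± 0.23 (limma adjusted p = 7.4e-13). The other CCK probe had 0.24, -0.01 and -0.11 at days 0, 4 and 16. Over the 8 measured genes of enteroendocrine cells, CCK included, the mean level of a pool was between 11.07 and 11.34 in line Y and between 10.69 and 11.09 in line X at day 4. The part of this cell type in the CCK value was not tested. YWHAG, a 14-3-3 protein, differed by 3.35 ± 0.14 at day 4, with only 1 of the 7 line X arrays of day 0 called well above background, while 2 of its 4 other probes had both signs. CCPG1 differed by 2.68 ± 0.18 at day 4, where its 2 other probes had -0.12 and -0.20. The CCPG1 probe was called well above background in 3 of 7 line X pools of day 0 and 7 of 8 of day 4.

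Among the 125 genes higher in line Y first, 10 act in absorption, transport and detoxification, with day 0 differences from 0.52 for APOB to 3.47 for MT4. The phosphate transporter SLC34A2 had its lowest, median and highest value at 10.81, 10.92 and 11.40 in line Y, against 9.42, 10.15 and 10.75 in line X at day 0. At day 4 it had 9.25, 9.60 and 9.77 in line Y, against 9.68, 10.12 and 10.29 in line X. At day 16 it had 5.79, 6.01 and 6.51 in line Y, against 6.01, 6.96 and 8.32 in line X. Line Y was thus above line X at day 0 only, and its pools overlapped with those of line X at the other days. The difference at day 4 was -0.52 ± 0.23 (limma adjusted p = 0.073), so that SLC34A2 was not called, but with the pool number as a block it was called lower (-0.53 ± 0.19, limma adjusted p = 0.034). The mean of both lines changed by -0.83 between day 0 and day 4 and by -3.21 between day 4 and day 16, and both falls were called.

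CA2, a carbonic anhydrase of red cells and epithelia, was 10.88, 10.97 and 11.28 in line Y at day 4, against 9.33, 10.03 and 10.47 in line X, with no overlap. The difference was 1.06 ± 0.18 (limma adjusted p = 8.5e-06), and both other CA2 probes had the signs of the reversal at days 0 and 16. In the list of erythrocyte genes, which takes the probe with the highest mean for each gene, 0 were called at day 4. The CA2 probe in that list is thus another one, which was not called. Over the 8 erythrocyte genes, of which CA2 is one, the mean level of a pool was between 13.26 and 13.66 in line Y and between 12.89 and 13.50 in line X at day 4, and the part of red cells in the CA2 value was not tested. MT4, a metallothionein that binds zinc and copper, differed by 2.50 ± 0.51 at day 4 (limma adjusted p = 0.00014), with pools between 8.70 and 12.44 in line Y and between 6.27 and 9.69 in line X. CNDP2, a peptidase of dipeptides, differed by 0.92 ± 0.35 (limma adjusted p = 0.037) and was not called with the pool number as a block (limma adjusted p = 0.091). SULT1B1, a sulfotransferase, differed by 0.80 ± 0.24 (limma adjusted p = 0.0067).

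For FABP1, the fatty acid binding protein of liver and enterocytes, the probe was saturated in 30 of the 45 arrays. At day 0 these were 7 of 7 line Y and 4 of 7 line X pools, and at day 16 they were 1 of 8 and 6 of 8. Saturation thus limits its differences of 0.54 at day 0 and -0.63 at day 16. At day 16, pool 21 of line Y had 12.59, with the other line Y pools between 15.11 and 16.00. APOB, the protein of chylomicron and VLDL particles, had 0.38 ± 0.26 at day 4 and was not called, and 4 of its 6 other probes had both signs. FABP1 and APOB were the 2 members among 15 measured genes of absorptive enterocytes, of which 0 were called at day 4 by limma. The mean level of this list was between 14.68 and 14.79 in line Y and between 14.45 and 14.58 in line X at day 0, and between 14.20 and 14.51 in line Y and between 14.34 and 14.60 in line X at day 16. Its part in the values of the 150 genes was not tested.

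Peptides of innate defence formed the list with the highest share of members, 3 of 10 measured genes, beside 139 of 3740 genes with a symbol (3.72%). AvBD1, a defensin of heterophils, had its lowest, median and highest value at 7.59, 8.36 and 9.08 in line Y, against 6.88, 7.55 and 7.84 in line X at day 0. At day 4 it had 5.78, 6.49 and 8.96 in line Y, against 6.69, 7.36 and 8.02 in line X. At day 16 it had 4.01, 5.22 and 7.35 in line Y, against 5.01, 6.66 and 8.13 in line X. The medians of the lines changed order after day 0, but the pools overlapped on every day. At day 16 the scanner software called the AvBD1 probe well above background in 5 of 8 line Y pools and 7 of 8 line X pools. Its values at that day thus lie partly near the background.

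None of AvBD1, LEAP2, an antimicrobial peptide of liver and epithelium, and CATH1, a cathelicidin, was called between the lines at day 4, with -0.61 ± 0.44, 0.08 ± 0.23 and -0.31 ± 0.30. All 3 fell between day 4 and day 16 in the mean of both lines, with changes of -0.97 for AvBD1, -0.92 for LEAP2 and -0.90 for CATH1. In the whole list of 10 genes 0 were higher and 3 were lower in line Y at day 4, beside 357 and 309 of the 3740 genes with a symbol. The 12 genes of macrophages and heterophils had a mean level between 8.41 and 9.02 in line Y and between 8.69 and 9.52 in line X at day 0, where AvBD1 and CATH1 were higher in line Y. LECT2, a chemotactic protein for leukocytes in mammals, had -0.23 ± 0.18 at day 4, and its mean over both lines rose by 3.05 between day 0 and day 4. The probe of CHIR-IG1-5, an Ig-like receptor of a large chicken gene family, differed by 1.33 ± 0.30 at day 4, whereas the other probe had 1.18, 1.36 and 1.53 at days 0, 4 and 16. Members of this family and of the BG family, to which V-BG belongs, are alike in sequence, and the gene that each probe reads is uncertain.

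Regulators in the nucleus were among the genes lower in line Y first. SRSF5, a splicing factor, DNMT3A, a DNA methyltransferase, and MSANTD2 were called lower in line Y at day 4, and HOXA4 was not called. SRSF5 had its lowest, median and highest value at 11.09, 11.42 and 11.55 in line Y, against 11.69, 11.82 and 12.15 in line X at day 0. Day 4 gave 9.38, 9.64 and 10.32 in line Y, against 9.77, 10.36 and 10.66 in line X. At day 16 it had 10.702, 10.97 and 11.23 in line Y, against 10.09, 10.40 and 10.63 in line X. Pools were apart at days 0 and 16 and overlapped at day 4. The difference at day 4 was -0.61 ± 0.12 (limma adjusted p = 4.5e-05), and all 3 other SRSF5 probes had both signs of the reversal.

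DNMT3A differed by -0.43 ± 0.13 at day 4 (limma adjusted p = 0.0067), and its other probe had -0.52, -0.42 and 0.60 at days 0, 4 and 16, nearly the values of the first one. MSANTD2 differed by -0.43 ± 0.08 (limma adjusted p = 1.5e-05). In HOXA4, which marks position along the body axis, the other probe had 1.58, 1.29 and 0.22, without a reversal. The largest called difference at day 4 in this direction was -0.94 ± 0.16 for CYP21A1, the steroid hydroxylase encoded in the MHC region (limma adjusted p = 8.8e-06). PHTF2 and PDE6G were also lower in line Y at day 4, with differences of -0.47 and -0.43.

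BCL6, a repressor that guides B and T cells of the germinal centre, was 7.73, 8.35 and 8.67 in line Y at day 0, against 8.71, 8.86 and 9.21 in line X. At day 16 it was 9.14, 9.32 and 9.40 in line Y, against 8.01, 8.60 and 8.89 in line X. The groups were apart at both days, and both other BCL6 probes had these signs. The line difference of CD5, a receptor of T cells, was -1.28 at day 0 and 0.67 at day 16, and at day 4 it was 0.05 ± 0.13. Over both lines CD5 rose by 2.03 between day 4 and day 16. The 11 measured genes of T and NK cells, CD5 included, had a mean level between 7.99 and 8.47 in line Y and between 8.26 and 8.59 in line X at day 0, and between 11.36 and 11.78 in line Y and between 11.29 and 11.46 in line X at day 16. The part of T cell number in the CD5 values was not tested. MX1, an antiviral protein induced by interferon, was not called at day 4 (-0.11 ± 0.27), and of the 9 measured interferon genes 0 were higher and 1 was lower in line Y.

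Among the 25 genes lower in line Y first were 3 of fat cells and lipogenesis, grouped after their values were seen. FABP4 carries fatty acids in fat cells, PLIN1 coats their lipid droplet, and THRSPB belongs to a family tied to fatty acid synthesis. FABP4 had its lowest, median and highest value at 9.10, 9.68 and 10.53 in line Y, against 9.83, 10.48 and 10.81 in line X at day 0. At day 16 it had 13.01, 13.49 and 13.87 in line Y, against 12.26, 12.79 and 13.77 in line X. The pools overlapped at both days. None of these 3 genes was called between the lines at day 4, where the differences were 0.50 ± 0.26, 0.07 ± 0.22 and 0.29 ± 0.20. All 3 rose between day 0 and day 4 in the mean of both lines, FABP4 by 3.19, PLIN1 by 2.90 and THRSPB by 3.05. Both other FABP4 probes had -0.98 and -0.81 at day 0, and both were called higher at day 4, with 0.65 and 0.54. In the list of 21 measured genes of fatty acid and lipid metabolism, 2 were higher and 2 were lower in line Y at day 4. In this list 7 genes were lower in line Y at day 0 and higher at day 16, 3 ran the other way, and FABP4 was the 1 member.

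Among receptors and ligands, FGFR1, a receptor of fibroblast growth factors, was 12.89, 13.18 and 13.44 in line Y, against 13.85, 14.14 and 14.43 in line X at day 0. At day 4 it was 12.71, 12.83 and 13.32 in line Y, against 12.31, 12.89 and 13.29 in line X, which overlapped almost in full. At day 16 it was 11.67, 12.06 and 12.41 in line Y, against 11.12, 11.30 and 12.25 in line X. The difference at day 4 was 0.06 ± 0.14 and was not called, and all 3 other FGFR1 probes had both signs. AREG, a ligand of the EGF receptor that supports growth of epithelium, had -0.61 ± 0.28 at day 4 and rose by 2.20 over both lines between day 0 and day 4.

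**Figure D5:**
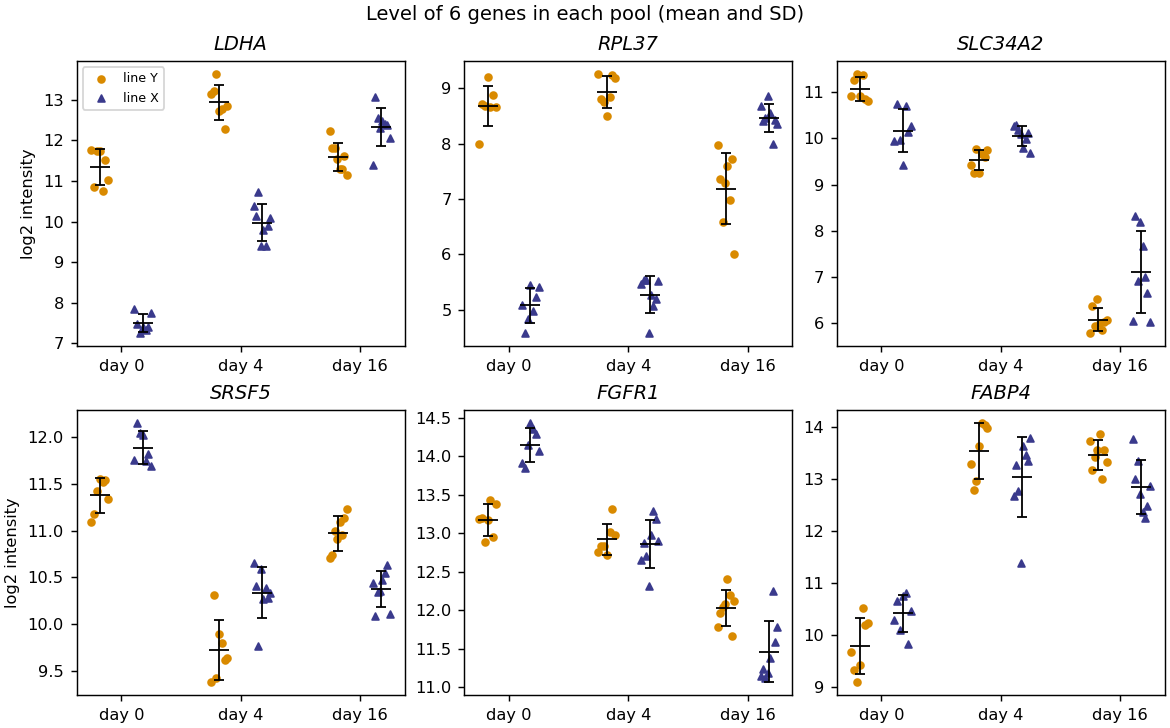
Log2 intensity of 6 genes in each pool by age, line Y (circles) left of line X (triangles), with bars for the mean and SD over 7 or 8 pools. LDHA, RPL37 and SLC34A2 are above line X in line Y at day 0 and below it at day 16, while SRSF5, FGFR1 and FABP4 run the other way.

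The size of some reversals rested on 1 pool. All 150 genes kept both signs without any single pool, which the choice of the highest scores favours. ALB, the serum albumin made by liver, reached 12.07 in pool 17 of line Y at day 16, with the other pools between 6.29 and 8.17, against 5.69 to 8.18 in line X. Without this pool its difference at day 16 became 0.19 instead of 0.80. Single pools also stood high at the other ages, with 13.14 in pool 4 of line X at day 0 and, at day 4, 12.15 in line Y and 13.42 in line X. POSTN, a matrix protein, was saturated at 16.00 in pool 21 of line X at day 16, and without this pool its difference became -0.11 instead of -1.12. SDHD, a subunit of succinate dehydrogenase, had 9.82 in pool 17 of line Y at day 16, against a median of 14.17, and without that pool its difference became -0.19 instead of -0.73. The score fell by a factor of over 1.5 without 1 pool in 27 genes, and in 16 of these the pool was 17 or 18 of line Y at day 16. The medians of the groups kept both signs in 148 of the 150 genes.

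Changes with age were called in both directions, in contrasts that share the arrays of day 0 or day 16 with the choice of the genes. Between day 0 and day 4, 54 of the 125 (43.2%) rose in the mean of both lines, against 22% of all probes, and 13 (10.4%) fell, against 23.6%. Averaged over the 125 genes, the level moved from 9.97 to 10.04 in line Y and from 8.81 to 9.44 in line X. The rise in the mean of both lines was mostly that of line X. The genes were chosen with line X below line Y at day 0, which favours this, so the split between the lines is a description only. Of the 25 other genes 8 (32.0%) rose and 13 (52.0%) fell. Between day 4 and day 16, 22 of the 125 (17.6%) rose, against 9.91% of all probes, and 12 (9.60%) fell, against 13.7%. Of the 25 other genes 8 rose and 5 fell. The highest rise up to day 4 was that of MX1, by 3.54.

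Members were found on many chromosomes, with 19 on chromosome 1, 19 on chromosome 2 and 7 on chromosome Z, of which males carry a pair and hens 1 copy. Of the members with a symbol 5.04% lay on Z, beside 4.32% of the candidate genes. RPL37, SPIN1 and MRPL50 are among those on Z. The share of hens in a pool can be read from genes of chromosome W, and the mean level of 7 such genes was between 11.35 and 11.49 in line Y and between 11.37 and 11.58 in line X at day 0, between 10.89 and 11.14 in line Y and between 11.13 and 11.40 in line X at day 4, and between 11.02 and 11.19 in line Y and between 10.76 and 11.27 in line X at day 16. The part of the sexes in these values was not tested.

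The remaining lists held few members or none. The lists for smooth muscle, pancreas, goblet cells, enteric neurons and glia, antigen presentation, cell cycle, cholesterol, solute transporters and junctions had 0 members, among between 3 and 37 measured genes each. Of the 37 measured genes of the cell cycle 2 were higher and 3 lower in line Y at day 4, and of the 23 measured genes against oxidants and xenobiotics 5 were higher and 2 lower, with SULT1B1 and the efflux pump ABCB1 as members. LYN, a kinase of B cells and myeloid cells, was the member in the lists of B cells and of macrophages and heterophils, and differed by 0.32 ± 0.29 at day 4. USP7, which removes ubiquitin, differed by 0.76 ± 0.16 between the lines at day 4 (limma adjusted p = 0.0002). It was the 1 member among 26 genes of proteasome and ubiquitin, yet its other probe had -0.14, -0.25 and 0.14 at days 0, 4 and 16. POSTN was the 1 member among 22 genes of collagen and matrix.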

How the data were processed

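Jejunal RNA of 45 pools was hybridised to one-colour arrays. The authors deposited the scanner's raw intensities and a log2 table, for which they used limma in R 3.0.2 with normexp background correction (offset 1), quantile normalization and averaging of replicate spots. These log2 values were used as deposited, and values computed again from the deposited intensities differed from them by at most 5.0e-09. Of 43603 probes that are not controls, 25527 exceeded 1.1 times the log2 value of the highest dark corner spot in all arrays of at least 1 group and were kept.

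Contrasts were fitted (limma 3.58.1, R 4.3.3) to all 6 groups together, tested on simulated data, with Benjamini-Hochberg adjustment over the 25527 probes. The calls required an adjusted p under 0.05 and a fold change over 1.3. Pools in 1 group came from separate birds, and their number and brightness limit the precision. A further fit took the pool number as a block, though the labels do not say that like-numbered pools of the lines are matched. The correlation of deviations in like-numbered pools was over 0.1 in 7 of 7 pairs at day 4 (0.102 to 0.261). It was over 0.1 in 4 of 7 pairs at day 0 (-0.262 to 0.196) and in 3 of 8 at day 16 (-0.194 to 0.328). Pools numbered alike also share the position on the slide.

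The members and the 26 gene lists were chosen with earlier results of these data known. For each list gene the probe with the highest mean was used. Symbols came from RefSeq accessions and the gene table of assembly GRCg7b, and 139 of the 150 members had one. Named members were the 12 highest scores with a symbol of each direction, members of the lists, the 5 largest called differences at day 4 of each sign, and the genes at the score limit. Further members were grouped by textbook role and named after their values were seen, namely ENO1, GAPDH, MYH9, SPTBN1, PLIN1, AREG, LECT2, EIF3H, EIF3M, C1orf43 and GSPT2, and the role groups have no test. The values of 1 member are not reported here, though it counts among the 150. Other filters, normalizations and fits, and fits without single pools, were tried. Matplotlib 3.10.9 drew the figures under Python 3.11.15.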

Additional observations from a re-analysis of the deposited data

Results flagged for a closer look

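In 44 of 360 groups of 7 or 8 pools, taken over the 60 named genes (12.2%), the highest or lowest pool stood farther from its nearest neighbour than Dixon's 95% limit allows. Chance gives about 1 in 20 such groups. Values are log2 intensities, and the causes were not tested.

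PDCD10 had 6.56 in pool 8 of line X day 0 (other pools 5.68 to 6.04) and 6.82 in pool 16 of line Y day 4 (other pools 7.64 to 8.17). MT4 had 6.69 in pool 4 of line X day 0 (other pools 8.38 to 9.65). CNDP2 had 13.64 in pool 22 of line X day 16 (other pools 14.04 to 14.33). MRPL50 had 9.40 in pool 6 of line Y day 0 (other pools 10.47 to 11.25). MYL12A had 6.43 in pool 21 of line Y day 16 (other pools 11.15 to 12.84). SH3GLB1 had 7.63 in pool 20 of line Y day 16 (other pools 10.45 to 11.32). POSTN had 7.42 in pool 4 of line Y day 0 (other pools 8.19 to 8.68), 5.71 in pool 5 of line X day 0 (other pools 7.15 to 7.78), 8.91 in pool 10 of line X day 4 (other pools 7.56 to 8.12) and 16.00 in pool 21 of line X day 16 (other pools 7.56 to 8.13). LYN had 5.53 in pool 9 of line Y day 4 (other pools 7.55 to 8.22) and 6.04 in pool 18 of line Y day 16 (other pools 7.19 to 7.94). ALB had 7.40 in pool 5 of line Y day 0 (other pools 6.31 to 6.61), 13.14 in pool 4 of line X day 0 (other pools 6.61 to 7.50), 12.15 in pool 11 of line Y day 4 (other pools 6.43 to 7.72) and 12.07 in pool 17 of line Y day 16 (other pools 6.29 to 8.17). SPTBN1 had 8.92 in pool 2 of line Y day 0 (other pools 9.23 to 9.45) and 6.97 in pool 12 of line Y day 4 (other pools 8.59 to 9.26).

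SDHD had 12.30 in pool 8 of line X day 0 (other pools 13.64 to 14.08), 13.47 in pool 12 of line Y day 4 (other pools 14.23 to 14.59) and 9.82 in pool 17 of line Y day 16 (other pools 13.63 to 14.50). AvBD1 had 6.88 in pool 3 of line X day 0 (other pools 7.46 to 7.84) and 8.96 in pool 10 of line Y day 4 (other pools 5.78 to 6.73). SULT1B1 had 8.22 in pool 12 of line X day 4 (other pools 9.01 to 9.44). ENO1 had 14.96 in pool 3 of line Y day 0 (other pools 14.41 to 14.60). YPEL2 had 8.94 in pool 23 of line Y day 16 (other pools 9.18 to 9.39). EIF3H had 12.37 in pool 5 of line X day 0 (other pools 12.55 to 12.69). LIMK1 had 8.93 in pool 2 of line Y day 0 (other pools 8.35 to 8.54). P4HB had 9.03 in pool 22 of line X day 16 (other pools 9.44 to 9.79). FABP4 had 11.39 in pool 12 of line X day 4 (other pools 12.68 to 13.79).

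USP7 had 8.31 in pool 13 of line Y day 4 (other pools 9.47 to 10.22). FABP1 had 14.004 in pool 9 of line X day 4 (other pools 16.00 to 16.00), 12.59 in pool 21 of line Y day 16 (other pools 15.11 to 16.00) and 15.96 in pool 20 of line X day 16 (other pools 15.99 to 16.00). ABCB1 had 10.68 in pool 24 of line X day 16 (other pools 9.84 to 10.21). C1orf43 had 8.80 in pool 4 of line Y day 0 (other pools 8.01 to 8.26). CA2 had 10.79 in pool 5 of line Y day 0 (other pools 9.60 to 9.80) and 11.28 in pool 10 of line Y day 4 (other pools 10.88 to 11.04). APOB had 9.49 in pool 4 of line Y day 0 (other pools 8.28 to 8.77). EEF2 had 12.02 in pool 4 of line Y day 0 (other pools 10.60 to 10.97). SRSF5 had 9.77 in pool 11 of line X day 4 (other pools 10.26 to 10.66). GAPDH had 13.67 in pool 12 of line X day 4 (other pools 14.20 to 14.62). PHTF2 had 9.38 in pool 5 of line X day 0 (other pools 8.92 to 9.05).

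Pool 4 of line Y at day 0 held 4 of the 44 values, and no other pool held more than 3.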

How the results depend on the processing

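The count of genes called at day 4 with the sign of day 0 was 70, and it was between 67 and 73 with no filter, the 75th percentile scaling, an offset of 50, only the groups of the contrast, the adjusted p alone or robust moderation. It was 64 with the replicate block (pool number), where 63 genes were called in both fits, and between 63 and 72 without 1 pool. With the limit on dim probes passed in all arrays, 38 members remained. Of these 38, 12 were called at day 4 with the sign of day 0, 17 between days 0 and 4 and 9 between days 4 and 16. The main fit called 70, 88 and 47 of the 150. The shares called were thus lower among the 38 as well as the counts, and the reason was not tested. The limit was highest in pool 12 of line X at day 4, where the highest dark corner spot had a log2 value of 9.73. The count with the sign of day 16 at day 4 was 0 and became 1 with an offset of 50, with only the groups of the contrast, with the adjusted p alone and with the block, where it was SLC34A2, and lay between 0 and 2 without 1 pool, with 1 without pool 18 of line X at day 16 and 2 without pool 11 of line Y at day 4. The count between days 4 and 16 became 73 with the adjusted p alone. Without 1 pool the age counts were between 85 and 91 and between 46 and 53.

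The signs at days 0 and 16 were kept by 149 of the 150 genes with the 75th percentile scaling, by 150 with an offset of 50 and by 150 to 150 without 1 pool. The choice of the highest scores favours this. A list chosen again shared 117, 131 and between 131 and 150 genes with the 150, which is the same share of each list. Without pools 17 and 18 of line Y at day 16, left out together after the data were seen, 148 genes kept both signs and 121 were shared. The median over all probes moved by under 0.1 with either scaling. Under the block, PDCD10, CNDP2, P4HB, RAB18 and DBT were among 7 genes no longer called at day 4, and GSPT2 was called. The limits are the brightness of dim probes, single slides for each group, and the choice of 1 probe for each gene.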
